A study of Homo sapiens with 14 samples.

Results

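PU.1, the C/EBP proteins, GFI1, GFI1B and IRF8 are transcription factors that set the fate of myeloid cells. Their genes (SPI1, CEBPA, CEBPD, CEBPE, GFI1, GFI1B and IRF8) were chosen by symbol, with earlier results of these data known. They were read from the raw counts of Kasumi-1 cells. Of the 7 genes, 5 matched a row in each of the tables, which held 16405 genes in the knockdown experiment and 12325 in the compound experiment. For GFI1B and IRF8 no row matched, and they were not analysed here. Kasumi-1 is a myeloblast line from an acute myeloid leukemia with the 8;21 translocation, which makes the RUNX1-RUNX1T1 fusion protein. It is a single line, so every group shares that translocation. The knockdown experiment compared cells given a lentivirus with an shRNA against RBPMS, a gene for an RNA-binding protein (shRBPMS, n = 3), with cells given a control shRNA (shCtrl, n = 3). These cells were infected for 48 h and selected with puromycin for 48 h. The compound experiment compared cells given RB98#, a compound known here only by that code name (n = 2), with cells given the vehicle DMSO (n = 2), at a dose and for a time that the labels do not give. The labels do not say whether replicates were separate cultures, so p-values measure the spread between these libraries, which may be technical.

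PU.1, encoded by SPI1, is an ETS factor that opens and activates genes of monocytes, macrophages and granulocytes, and its dose helps to decide between these fates. C/EBP-alpha, encoded by CEBPA, starts the granulocyte programme, and C/EBP-epsilon, encoded by CEBPE, acts later, on secondary granule genes. GFI1 is a zinc finger repressor that recruits the demethylase KDM1A, favours granulocytes and is known to oppose PU.1. The fusion protein of the 8;21 translocation is known to lower CEBPA and to interfere with PU.1.

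The 6 knockdown libraries held 24.03 to 34.38 M counts (1 M is 1e6), and the 4 libraries of the RB98# experiment 13.85 to 15.35 M. RBPMS, the targeted gene, was at 20.41, 7.243 and 7.392 CPM (counts per 1e6 counts) in shCtrl replicates 1 to 3 and at 2.528, 3.337 and 3.076 CPM in shRBPMS. The library labels put replicate 1 of each knockdown group in a set of its own (set 1) and replicates 2 and 3 in another (set 2), and the labels do not say what the sets mean. Replicate 1 stood apart: between libraries of a group, the chi-square per degree of freedom of the counts was 2.98 for shCtrl replicates 2 and 3 and at least 188 for either against replicate 1. In shRBPMS these values were 2.98 and at least 130. Knockdown results are therefore given in 2 ways, by group alone, and with a replicate block, which removes what same-numbered libraries share and so takes account of the set. All 8 myeloblast markers looked up (MPO, CD33, KIT, CD34, CSF3R, SPI1, CEBPA and RUNX1T1) were found, with summed levels of 14070 to 18210 CPM over all 10 libraries. MPO made up most of each sum, with group means of 13010 to 15200 CPM, so the sums say little of the other markers.

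The windows just before RefSeq start sites of the C/EBP and GFI1 genes are shown because the factors of this network are known to bind each other's promoters. RefSeq promoter entries matched 5 of the 7 genes. The CEBPE and GFI1 windows shown lie within the spans that GENCODE gives these genes, and the CEBPA window overlaps its span. RefSeq and GENCODE start sites thus differ. Each window holds the 250 bases before a start site on GRCh38.p14, written 5′ to 3′ on the gene's strand, and capitals mark matches to the motifs searched. These were TATAAA (the TATA box), GAGGAA (a core shared by PU.1 and other ETS factors), TTGCNNAA (C/EBP), TGTGGT (RUNX) and AAATCA (GFI1), on both strands.
CEBPA, chr19:33302535-33302784, minus strand: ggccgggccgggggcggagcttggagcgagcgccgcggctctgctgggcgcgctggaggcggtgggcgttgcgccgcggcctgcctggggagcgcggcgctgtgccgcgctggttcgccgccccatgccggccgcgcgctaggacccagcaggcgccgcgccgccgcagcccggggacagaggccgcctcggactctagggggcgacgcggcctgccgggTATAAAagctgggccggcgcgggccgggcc
CEBPE, chr14:23119256-23119505, minus strand: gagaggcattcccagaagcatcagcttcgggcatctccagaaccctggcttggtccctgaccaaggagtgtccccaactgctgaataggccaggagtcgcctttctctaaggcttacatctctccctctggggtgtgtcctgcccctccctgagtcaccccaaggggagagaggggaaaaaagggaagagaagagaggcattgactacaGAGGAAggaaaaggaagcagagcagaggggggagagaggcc
GFI1, chr1:92486100-92486349, minus strand: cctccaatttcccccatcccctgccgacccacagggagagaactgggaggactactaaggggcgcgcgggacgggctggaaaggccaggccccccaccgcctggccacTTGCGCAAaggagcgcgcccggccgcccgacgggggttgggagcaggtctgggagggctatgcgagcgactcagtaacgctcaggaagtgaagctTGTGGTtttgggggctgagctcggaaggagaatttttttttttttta

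The CEBPA window was 81.2% G and C and held TATAAA, which begins 30 bases before the start site, and no match to the other motifs. TATAAA was in 10.7% of all 35116 windows of that length. The CEBPE window held GAGGAA 41 bases before its start, a motif found in 23.6% of windows. The GFI1 window held TTGCNNAA at 142 bases and TGTGGT at 47 bases before the start, motifs found in 9.05% and 11% of windows. A match to letters is a description of the window and no evidence of binding. GFI1 has 2 other RefSeq windows, of which 1 held GAGGAA and 1 held no motif searched. The window without a motif is the only GFI1 window upstream of the GENCODE span of the gene. No motif matches overlapped in the windows shown.

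SPI1 (ENSG00000066336, chromosome 11, 47354860 to 47378576, minus strand, GENCODE on GRCh38) was the member that moved most after the knockdown. In shCtrl it was at 31.74, 46.90 and 45.38 CPM, scaled by the TMM factors of the library. In shRBPMS it was at 121.4, 116.6 and 112.3 CPM. The lowest shRBPMS library was far above the highest shCtrl library, and shCtrl replicate 1 was the lowest of all. The mean went from 41.3 ± 8.35 to 117 ± 4.56 CPM (SD, n = 3 each), a log2 fold change of 1.498 (SE 0.18, edgeR quasi-likelihood test, adjusted p = 0.0233), or 2.82-fold. With the replicate block the log2 fold change was 1.51 (SE 0.13, edgeR adjusted p = 0.000642). Set 1 alone gave a log2 ratio of 1.94 and set 2 alone 1.31. In the authors' deposited table the log2 fold change was 1.45 (adjusted p = 1.14e-12). By group alone the call was kept without shCtrl replicate 1 (1.33, edgeR adjusted p = 0.0151) and lost without any other single library (edgeR adjusted p = 0.0619 to 0.154), at log2 fold changes of 1.47 to 1.58.

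SPI1 was the only member called in the knockdown by group alone, 1 of 5, where 1.97% of all genes were called (0.629% higher and 1.34% lower). With the replicate block 3 of 5 members were called, SPI1 and CEBPE higher and GFI1 lower, where 28.1% of all genes were called (13.3% higher and 14.8% lower). The same 3 members were called in set 2 alone, in the same directions, where 42.2% of all genes were called (20.5% higher and 21.7% lower). With replicates 2 and 3 of each group summed and the label set in the model, SPI1 alone was called, where 16.4% of all genes were called (7.73% higher and 8.62% lower). DESeq2 by group alone called SPI1, where it called 8.16% of all genes.

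**Figure D1:**
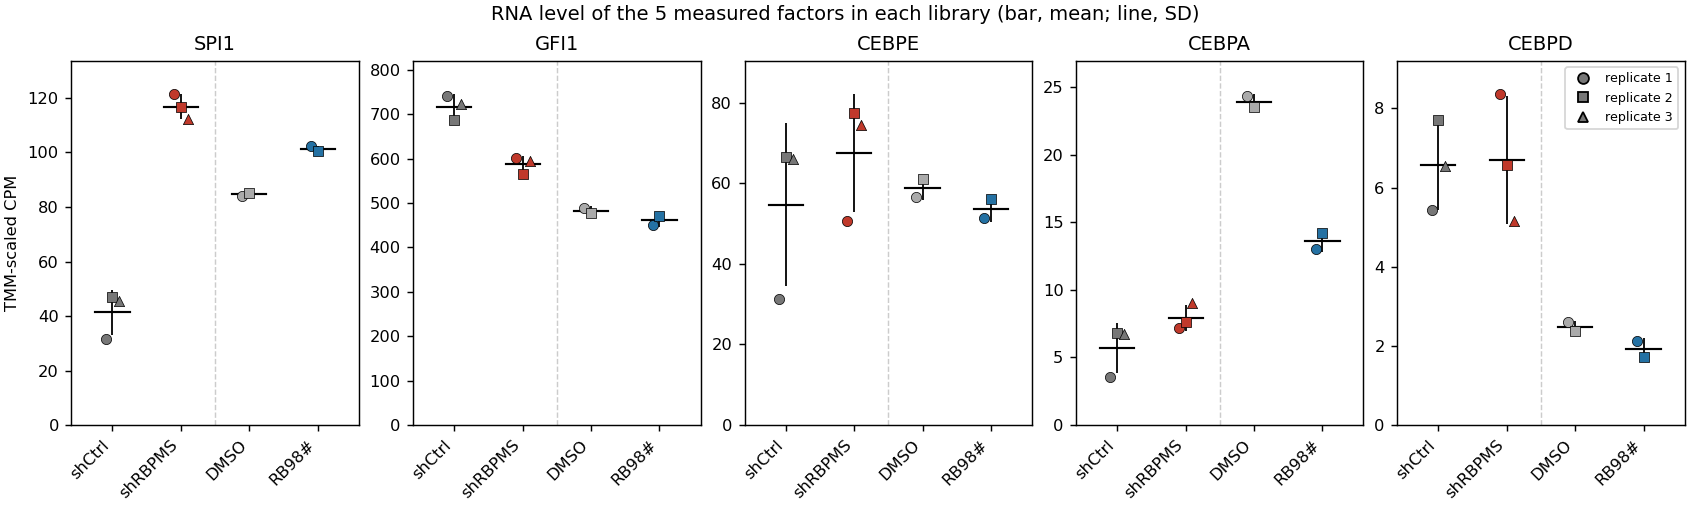
RNA level of the 5 measured factors in TMM-scaled CPM (y axis, from 0 in each panel) by group (x axis), with a point for each library, its shape giving the replicate number, a bar for the mean and a line for the SD. SPI1 sits at 112.3 to 121.4 CPM in shRBPMS and at 31.74 to 46.90 CPM in shCtrl, and CEBPA at 13.04 and 14.19 CPM with RB98# and at 24.31 and 23.53 CPM with DMSO.

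With RB98#, SPI1 rose by a smaller amount. It was at 84.18 and 85.14 CPM with DMSO and at 102.2 and 100.7 CPM with RB98#. The groups did not overlap, and the SD in each was near 1 CPM. The log2 fold change was 0.26 (SE 0.07, edgeR adjusted p = 0.00457), or 1.198-fold, and 0.26 in the authors' deposited table (adjusted p = 0.0274). The call was lost without DMSO replicate 1 (0.25, edgeR adjusted p = 0.105), without DMSO replicate 2 (0.27, edgeR adjusted p = 0.0911) and with library totals in place of TMM factors (0.16, edgeR adjusted p = 0.0694). That scaling moved the median of all genes by -0.101 on the log2 scale.

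CEBPA (ENSG00000245848, chromosome 19, 33299934 to 33302564, minus strand, 1 exon) fell with RB98#. It was at 24.31 and 23.53 CPM with DMSO and at 13.04 and 14.19 CPM with RB98#. Both RB98# libraries were well below both DMSO libraries. The mean went from 23.9 ± 0.55 to 13.6 ± 0.812 CPM (SD, n = 2 each), a log2 fold change of -0.81 (SE 0.12, edgeR adjusted p = 1.12e-05), or 0.569 times the DMSO level. The authors' deposited table gives -0.81 (adjusted p = 0.000396). The call was kept under every alternative run for it.

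In the knockdown experiment CEBPA did not pass by group alone. It was at 3.566, 6.813 and 6.735 CPM in shCtrl and at 7.176, 7.622 and 9.013 CPM in shRBPMS. Every shRBPMS library was above every shCtrl library, but shCtrl replicate 1 was low while the other shCtrl libraries came close to the shRBPMS range. The log2 fold change was 0.47 (SE 0.28, edgeR adjusted p = 0.472), and 0.50 with the replicate block (SE 0.18, edgeR adjusted p = 0.0750). In a fit with the set in place of the number it was 0.50 and passed (edgeR adjusted p = 0.0392), where 35.8% of all genes passed. With replicates 2 and 3 summed in that fit it was 0.61 and did not pass (edgeR adjusted p = 0.0811). Without shCtrl replicate 1 the log2 fold change by group alone was 0.22. The log2 ratio was 1.01 within set 1 and 0.30 within set 2.

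CEBPA shares 1141 bases of its exon with antisense genes on the other strand, and the counting strand is not given in the sources used here, so reads of the partners cannot be told apart. CEBPA-DT (ENSG00000267296, chromosome 19, 33302857 to 33305054, plus strand), a noncoding transcript that starts 293 bases from the CEBPA start in the opposite direction, was added after its values were seen. With DMSO it was at 5.052 and 6.212 CPM and with RB98# at 1.433 and 1.717 CPM, from counts of 74 and 99 against 21 and 23. It fell with RB98#, with a log2 fold change of -1.84 (SE 0.29, edgeR adjusted p = 2.10e-05), the same direction as CEBPA. In the knockdown experiment it was at 0.7577, 3.335 and 2.340 CPM in shCtrl and at 3.180, 2.915 and 3.398 CPM in shRBPMS, where the groups overlapped.

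CEBPE (ENSG00000092067, chromosome 14, 23117304 to 23119616, minus strand) differed more between label sets than between knockdown groups. It was at 31.33, 66.58 and 66.04 CPM in shCtrl and at 50.68, 77.42 and 74.36 CPM in shRBPMS. Replicate 1 was the lowest library of both groups, and the groups overlapped. By group alone the log2 fold change was 0.30 (SE 0.32, edgeR adjusted p = 0.736), and with 1 library left out it ran from 0.017 (without shCtrl replicate 1) to 0.47 (without shRBPMS replicate 1), with moves of over 1.5 times also without shCtrl replicate 2 (0.46) and shRBPMS replicate 2 (0.19). With the replicate block it was 0.35 (SE 0.11) and just passed (edgeR adjusted p = 0.0490), a call lost with replicates 2 and 3 summed (0.44, edgeR adjusted p = 0.0567). Set 1 alone gave a log2 ratio of 0.69 and set 2 alone 0.20. With RB98#, CEBPE was at 51.33 and 56.15 CPM, against 56.67 and 61.17 CPM with DMSO, and the log2 fold change of -0.13 (SE 0.085) did not pass (edgeR adjusted p = 0.226). With library totals in place of TMM factors it was -0.24 and passed (edgeR adjusted p = 0.0325).

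CEBPD (ENSG00000221869, chromosome 8, 47736909 to 47739086, minus strand) encodes C/EBP-delta, known as a fast-induced factor of inflammation and myeloid maturation. It was the least expressed member with RB98# and DMSO. In shCtrl it was at 5.438, 7.709 and 6.535 CPM and in shRBPMS at 8.358, 6.569 and 5.150 CPM, and the groups overlapped. The log2 fold change was 0.026 by group alone (SE 0.24, edgeR adjusted p = 0.981), with 0.62 within set 1 and -0.28 within set 2. With RB98# the level was 2.116 and 1.717 CPM, against 2.594 and 2.384 CPM with DMSO, from counts of 31 and 23 against 38 and 38. The log2 fold change of -0.37 had an SE of 0.33 (edgeR adjusted p = 0.409).

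GFI1 (ENSG00000162676, chromosome 1, 92474762 to 92486876, minus strand) was the highest member in every group. It was at 741.7, 686.6 and 722.5 CPM in shCtrl and at 601.2, 565.0 and 593.6 CPM in shRBPMS. Every shRBPMS library was below every shCtrl library. The mean went from 717 ± 28.0 to 587 ± 19.1 CPM (SD, n = 3 each), a log2 fold change of -0.29 (SE 0.11) that did not pass by group alone (edgeR adjusted p = 0.254). With the replicate block GFI1 fell by 0.29 on the log2 scale (SE 0.056, edgeR adjusted p = 0.0106), a call lost with replicates 2 and 3 summed (-0.29, edgeR adjusted p = 0.135). The label sets gave -0.30 and -0.28. With RB98#, GFI1 was at 450.1 and 471.4 CPM, against 489.5 and 476.5 CPM with DMSO, a log2 fold change of -0.068 (SE 0.055, edgeR adjusted p = 0.352). With library totals it was -0.17 and passed (edgeR adjusted p = 0.0167).

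Counted without a model, the libraries of shRBPMS and shCtrl did not overlap for 3 of the 5 members (SPI1, CEBPA and GFI1), against 25.9% of all genes. With RB98# 2 of the 5 members were called, SPI1 higher and CEBPA lower, where 37.8% of all genes were called (20.5% higher and 17.3% lower). The share of members called is thus close to that of all genes. DESeq2 and the replicate block called the same 2 members there, with 27.7% and 35.9% of all genes. All 5 members did not overlap between RB98# and DMSO, against 68.3% of all genes.

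**Figure D2:**
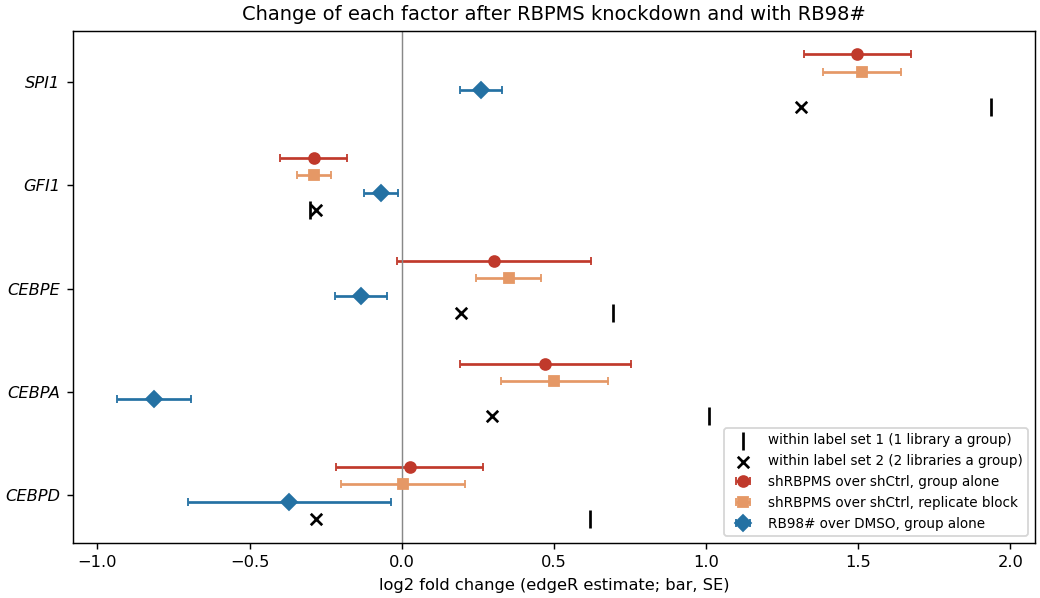
Log2 fold change of each factor (x axis) from the edgeR fits by group alone, by replicate block and with RB98#, with bars for the SE, and the ratios within each label set without error. SPI1 is at 1.498 after the knockdown and 0.26 with RB98#, and CEBPA at 0.47 and -0.81, while the label set ratios of CEBPD lie on either side of 0.

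Levels of different genes are compared per kilobase of exon. In shCtrl the mean was 217 CPM per kilobase for GFI1, 35.2 for CEBPE, 19.98 for SPI1, 3.01 for CEBPD and 2.17 for CEBPA. In shRBPMS it was 178 for GFI1, 56.4 for SPI1, 43.4 for CEBPE, 3.07 for CEBPD and 3.02 for CEBPA, so SPI1 had moved above CEBPE while the lowest pair could not be ordered. With DMSO the mean was 146 CPM per kilobase for GFI1, 40.9 for SPI1, 37.9 for CEBPE, 9.09 for CEBPA and 1.14 for CEBPD. With RB98# it was 140 for GFI1, 49.0 for SPI1, 34.6 for CEBPE, 5.17 for CEBPA and 0.88 for CEBPD, the same order as with DMSO. The shCtrl and DMSO cells came from separately counted experiments with different handling, and the levels of SPI1 and CEBPA in them are set side by side without a comparison.

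The ratio of SPI1 to another member within a library does not depend on the scaling of libraries. The log2 ratio of SPI1 to GFI1 per length was -3.87, -3.20 and -3.32 in shCtrl and -1.63, -1.60 and -1.73 in shRBPMS. The lowest shRBPMS library lay above the highest shCtrl library, and the mean moved by 1.81 from -3.46 ± 0.36 to -1.66 ± 0.065 (SD, n = 3 each). With DMSO this ratio was -1.87 and -1.81, and with RB98# it was -1.47 and -1.55, a move of 0.33. In shCtrl SPI1 stood at 0.0907 times GFI1, and in shRBPMS at 0.318 times.

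SPI1 to CEBPE was the ratio that crossed 0. Its log2 value was -0.39, -0.92 and -0.95 in shCtrl and 0.85, 0.18 and 0.18 in shRBPMS, a move of 1.16. With DMSO it was 0.16 and 0.06, and with RB98# 0.58 and 0.43. Per exon length SPI1 was thus below CEBPE in all 3 shCtrl libraries and above it in the other 7 libraries. The place of 0 rests on the exon lengths used, 2069 bases for SPI1 and 1554 for CEBPE. By raw counts SPI1 was already above CEBPE in shCtrl replicate 1 (712 against 703). The move between groups does not depend on these lengths.

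SPI1 to CEBPA was the ratio that moved by a like amount in each experiment. Its log2 value was 3.50, 3.13 and 3.10 in shCtrl and 4.43, 4.28 and 3.99 in shRBPMS, a move of 0.99. With DMSO it was 2.14 and 2.202, and with RB98# it was 3.32 and 3.17, a move of 1.08. In the knockdown SPI1 was the member that passed, and with RB98# the fall of CEBPA was larger than the rise of SPI1. These ratios are given as values: a two-sided exact permutation test cannot go below p = 0.1 with 3 libraries against 3, or 0.333 with 2 against 2.

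**Figure D3:**
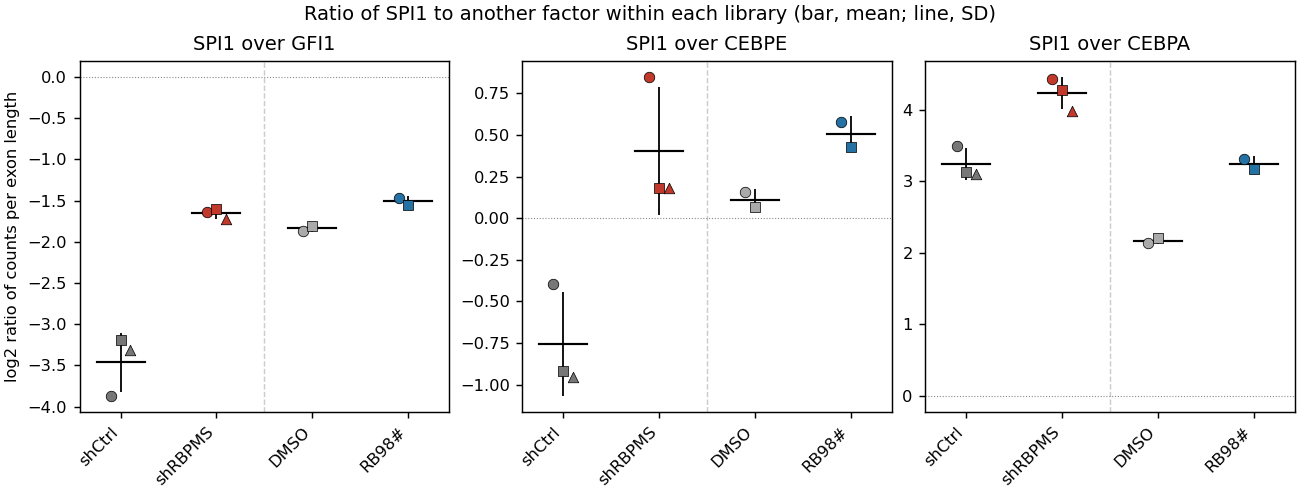
Log2 ratio of SPI1 to GFI1, to CEBPE and to CEBPA, in counts per exon length (y axis), in each library by group (x axis), with a bar for the mean and a line for the SD. In each panel the groups of an experiment do not overlap, and the ratio to CEBPE lies below 0 in the 3 shCtrl libraries only.

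The effects of RB98# and of the knockdown were compared in a fit of all 10 libraries, as the RB98# effect minus the knockdown effect. The difference for SPI1 was -1.25 on the log2 scale (SE 0.22, edgeR adjusted p = 0.0137), so the rise of SPI1 was smaller with RB98#. It was 1 of 5 members called, where 8.15% of all genes were called (4.79% higher and 3.36% lower). It was not called without DMSO replicate 1 (edgeR adjusted p = 0.0709), DMSO replicate 2 (0.0810), RB98# replicate 1 (0.0781) or RB98# replicate 2 (0.0717). The difference for CEBPA was -1.30 (SE 0.36) and did not pass by group alone (edgeR adjusted p = 0.0615). It passed with the replicate block (edgeR adjusted p = 0.00246, 37.1% of all genes called), with DESeq2 (adjusted p = 0.0106, 14.8% of all genes called) and without shCtrl replicate 1 (-1.06, edgeR adjusted p = 0.0145). The difference for CEBPE was -0.46 by group alone (edgeR adjusted p = 0.597) and passed with the block (-0.50, edgeR adjusted p = 0.0281). For CEBPD it was -0.41 (edgeR adjusted p = 0.560) and for GFI1 0.21 (edgeR adjusted p = 0.388).

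The members sit in a wider network, followed here in lists of genes named from textbook knowledge, with earlier results of these data known. Of 25 genes known as targets of PU.1, 18 were tested in the knockdown. By group alone 1 was called, and it was higher. With the replicate block 10 were higher and 2 lower, against 13.3% and 14.8% of all genes, and the median log2 fold change was 0.59, against 0.019 over all genes. In label set 2 alone 12 were higher and 2 lower, against 20.5% and 21.7% of all genes. With replicates 2 and 3 summed 9 were higher and 2 lower, against 7.73% and 8.62%. CYBA, NCF1 and NCF4, subunits of the phagocyte NADPH oxidase, rose with the block, by log2 fold changes of 1.00, 0.59 and 0.65. By group alone none of them passed (edgeR adjusted p = 0.606, 0.0917 and 0.0903). CYBA went from 177 ± 111 to 334 ± 187 CPM, a wide spread within each group. CSF2RB, the shared receptor subunit of GM-CSF, IL-3 and IL-5, went from 2.87 ± 1.1 to 8.75 ± 2.51 CPM and rose with the block (1.62, edgeR adjusted p = 0.000790). TYROBP, a signalling adaptor, went from 0.282 ± 0.166 to 0.840 ± 0.116 CPM (block 1.67, edgeR adjusted p = 0.0353), a low level. CSF3R, the G-CSF receptor, fell with the block (-0.47), and AIF1, an actin-binding protein of macrophages, fell as well (-1.01).

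With RB98#, 3 of 19 tested PU.1 targets rose and 3 fell, where 20.5% and 17.3% of all genes did, and the median was 0.07. FCGR1A, a high-affinity receptor for IgG, rose from 8.52 ± 0.694 to 17.8 ± 0.384 CPM (1.07, SE 0.14, edgeR adjusted p = 2.39e-06). CSF2RB rose by 0.69 (edgeR adjusted p = 0.00909), a call lost with DESeq2 and without DMSO replicate 1 or RB98# replicate 2. NCF1 and NCF4, which rose with the block in the knockdown, fell with RB98#, with log2 fold changes of -0.65 and -0.24. CYBA, which also rose with the block, was at -0.042 with RB98# and was not called (edgeR adjusted p = 0.665). CSF1R, the receptor of M-CSF, went from 1.45 ± 0.271 to 0.606 ± 0.012 CPM (-1.24, edgeR adjusted p = 0.0426), a call lost without any 1 library. With library totals 2 PU.1 targets were higher and 4 lower, where 40.3% of all genes were called (13.7% higher and 26.6% lower).

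Of the tested C/EBP targets, mostly granule proteins, 1 of 9 was called by group alone in the knockdown and with the block 3 were higher and 1 lower (median 0.03), against 13.3% and 14.8% of all genes. In label set 2 alone 3 were higher and 6 lower, against 20.5% and 21.7%. BPI, a bactericidal protein of azurophil granules, rose from 1.87 ± 0.578 to 6.58 ± 1.17 CPM (1.81, SE 0.30, edgeR adjusted p = 0.0380 by group alone). CTSG, the granule protease cathepsin G, went from 15.04 ± 1.22 to 61.0 ± 49.7 CPM, with a spread between shRBPMS libraries near the size of their mean (block 1.73, edgeR adjusted p = 0.0106). PADI4, an arginine deiminase of neutrophils, fell with the block (-1.14, edgeR adjusted p = 0.00616). With RB98# 5 of 9 rose and none fell, against 20.5% and 17.3% of all genes. The changes were small: CTSG by 0.40, the granule protein AZU1 by 0.25 and the peroxidase MPO by 0.22. The call of CTSG was lost with DESeq2 and without DMSO replicate 2, that of AZU1 without DMSO replicate 2 and that of MPO without DMSO replicate 1 or 2. With library totals 3 of 9 rose, against 13.7% of all genes.

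The C/EBP relatives and the Tribbles pseudokinases, of which TRIB1 and TRIB2 are known to drive degradation of C/EBP-alpha, had 0 of 7 genes called in the knockdown by group alone with edgeR. At an unadjusted p under 0.05 there was 1, and DESeq2 called 1 and limma-voom 0. With the block TRIB3, a stress-induced pseudokinase, rose from 37.4 ± 9.05 to 78.3 ± 5.63 CPM (1.09, SE 0.11, edgeR adjusted p = 0.00110) and CEBPB, a C/EBP factor of monocytes and stress, by 0.45. These 2 of 7 stand against 13.3% of all genes. With RB98# 5 of 7 rose and 1 fell, against 20.5% and 17.3% of all genes, with a median of 0.64. TRIB3 rose from 43.5 ± 1.29 to 81.7 ± 1.93 CPM (0.91), DDIT3, a stress-induced C/EBP relative, by 0.84, and CEBPB from 8.99 ± 0.999 to 15.8 ± 2.68 CPM (0.82, SE 0.16, edgeR adjusted p = 0.000199). TRIB1 rose by 0.58, and TRIB2 was at -0.36 and was not called. CEBPA RNA fell in the same libraries, and a link between these changes was not tested.

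Of 13 tested ETS relatives of PU.1, 1 was called in the knockdown by group alone, SPIB, the lymphoid relative, which fell from 0.825 ± 0.058 to 0.188 ± 0.053 CPM (-2.12, SE 0.33, edgeR adjusted p = 0.0353). With the block 2 were higher and 5 lower, against 13.3% and 14.8% of all genes, and with replicates 2 and 3 summed 0 were higher and 4 lower, against 7.73% and 8.62%. The median with the block was -0.21, and the lower genes included ERG (-0.85), a stem cell factor, from 232 ± 71.6 to 125 ± 12.5 CPM, and ELK3 (-0.87), a partner of serum response factor. With RB98# 5 of 12 rose and none fell, against 20.5% and 17.3% of all genes, median 0.22, with ELK4, also a partner of serum response factor, at 0.82, FLI1, a relative of ERG, at 0.64 and ELF1 at 0.61. With library totals 4 rose and 1 fell, against 13.7% and 26.6%.

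Of the IRF factors, relatives of IRF8 that include partners of PU.1 at composite sites, 0 of 7 were called by group alone with edgeR in the knockdown, with 3 at an unadjusted p under 0.05, 2 by DESeq2 and 0 by limma-voom. With the block 1 was higher and 2 lower, against 13.3% and 14.8% of all genes: IRF5 at 0.62, IRF2 at -0.73 and IRF4 at -2.63. IRF4 went from 2.74 ± 3.38 to 0.324 ± 0.132 CPM, an SD above the mean in shCtrl. With RB98# 1 of 7 rose and 2 fell, against 20.5% and 17.3% of all genes. IRF7, a factor of the interferon response, rose from 2.95 ± 0.176 to 6.09 ± 0.371 CPM (1.05, edgeR adjusted p = 0.00120). IRF5 (-0.38) and IRF3 (-0.30) fell, IRF5 with a call lost without DMSO replicate 2 and IRF3 with a call lost under DESeq2 and without DMSO replicate 1, DMSO replicate 2 or RB98# replicate 1.

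Of 10 genes of the KDM1A corepressor that GFI1 recruits, 1 was called in the knockdown by group alone, RCOR2, a CoREST scaffold, which fell from 3.11 ± 0.518 to 0.827 ± 0.082 CPM (-1.90, SE 0.25, edgeR adjusted p = 0.0258). With the block 1 was higher and 5 lower, against 13.3% and 14.8% of all genes, RCOR1 at 0.55 and PHF21A, a histone reader, at -0.51, beside RCOR2. In label set 2 alone 1 was higher and 7 lower, against 20.5% and 21.7%, and with replicates 2 and 3 summed 1 and 3, against 7.73% and 8.62%. With RB98# 1 rose and 2 fell, against 20.5% and 17.3%: RCOR1 rose by 0.37, and EHMT2, a histone methyltransferase, and HDAC2, a deacetylase, fell by 0.37 and 0.21, HDAC2 with a call lost without DMSO replicate 1 or 2.

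Of 7 tested genes known to be repressed by GFI1, 0 were called by group alone with edgeR in the knockdown, with 3 at an unadjusted p under 0.05, 2 by DESeq2 and 0 by limma-voom. With the block 1 rose and 2 fell, against 13.3% and 14.8% of all genes: HOXA10, a homeobox factor, rose (0.73), and CDKN1A, the cell cycle inhibitor p21, fell from 17.01 ± 5.43 to 7.44 ± 3.02 CPM (-1.22), as did CSF1, the ligand of CSF1R (-3.11), from 1.16 ± 0.595 to 0.146 ± 0.195 CPM. With RB98# 4 were tested, of which 1 rose and 2 fell, against 20.5% and 17.3%: CDKN1A rose from 9.35 ± 0.096 to 37.1 ± 4.41 CPM (1.99, SE 0.12, edgeR adjusted p = 4.66e-12), while HOXA10 (-1.21) and ID1 (-0.76) fell.

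Of the factors known to bind or oppose PU.1, 0 of 12 were called by group alone with edgeR in the knockdown, with 2 at an unadjusted p under 0.05, 1 by DESeq2 and 0 by limma-voom. With the block 1 was higher and 4 lower, against 13.3% and 14.8% of all genes, and with replicates 2 and 3 summed 0 were higher and 2 lower, against 7.73% and 8.62%. The median with the block was -0.26, and the lower genes included TAL1, an erythroid and stem cell factor (-0.75), RUNX1T1, the partner in the fusion gene (-0.68), and RUNX1 (-0.29). RUNX1 only just passed with the block (edgeR adjusted p = 0.0496). The spread in shCtrl was wide for both, at 603 ± 187 CPM for RUNX1 and 300 ± 163 CPM for RUNX1T1. Counts of RUNX1 and RUNX1T1 include reads of the fusion transcript. With RB98# 7 of 12 rose and 1 fell, against 20.5% and 17.3% of all genes, and with library totals 5 rose and 2 fell, against 13.7% and 26.6%. JUN, an AP-1 factor and partner of PU.1, rose from 13.98 ± 0.553 to 213 ± 4.21 CPM (3.93, SE 0.082, edgeR adjusted p = 2.14e-21), and EGR1, a zinc finger factor of monocyte differentiation, from 3.15 ± 0.598 to 10.0 ± 0.675 CPM (1.66). TAL1 fell from 74.6 ± 1.97 to 31.8 ± 4.34 CPM (-1.23).

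The calls of SPIB, RCOR2 and BPI by group alone were each lost without shCtrl replicate 2 or 3 or any 1 shRBPMS library, as that of SPI1 was. Of the 8 myeloblast markers, which include SPI1 and CEBPA, 2 were higher and 2 lower with the block, against 13.3% and 14.8% of all genes. With RB98# 3 rose and 4 fell, against 20.5% and 17.3%. CD33 went from 15.3 ± 2.68 to 50.0 ± 9.54 CPM in the knockdown and from 24.4 ± 0.674 to 13.7 ± 2.48 CPM with RB98#. Markers of other blood cells moved with the knockdown: 6 lymphoid markers summed to 14.4 to 14.9 CPM in shCtrl and 6.65 to 8.04 CPM in shRBPMS, and 3 megakaryocyte markers to 11.3 to 16.1 CPM and 3.63 to 4.46 CPM. With RB98# 3 lymphoid markers summed to 5.53 to 6.50 CPM, against 4.89 to 5.60 CPM with DMSO, and 2 megakaryocyte markers to 5.67 to 6.57 CPM, against 7.37 to 9.04 CPM, without overlap. Of 7 erythroid markers KLF1 and EPOR were found. KLF1 fell with the block (log2 fold change -1.02), from 3.48 ± 0.472 to 1.72 ± 0.360 CPM, and it fell with RB98# from 1.76 ± 0.172 to 0.711 ± 0.056 CPM (-1.30), a call that DESeq2 did not make. Of 8 epithelial or fibroblast markers EPCAM was found, and it rose with the block in the knockdown (0.52), from 31.4 ± 7.56 to 46.1 ± 16.8 CPM. Their part in the changes of the members and lists was not tested. In bulk RNA of this single line, fewer cells with a marker and less of its RNA per cell cannot be told apart.

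**Figure D4:**
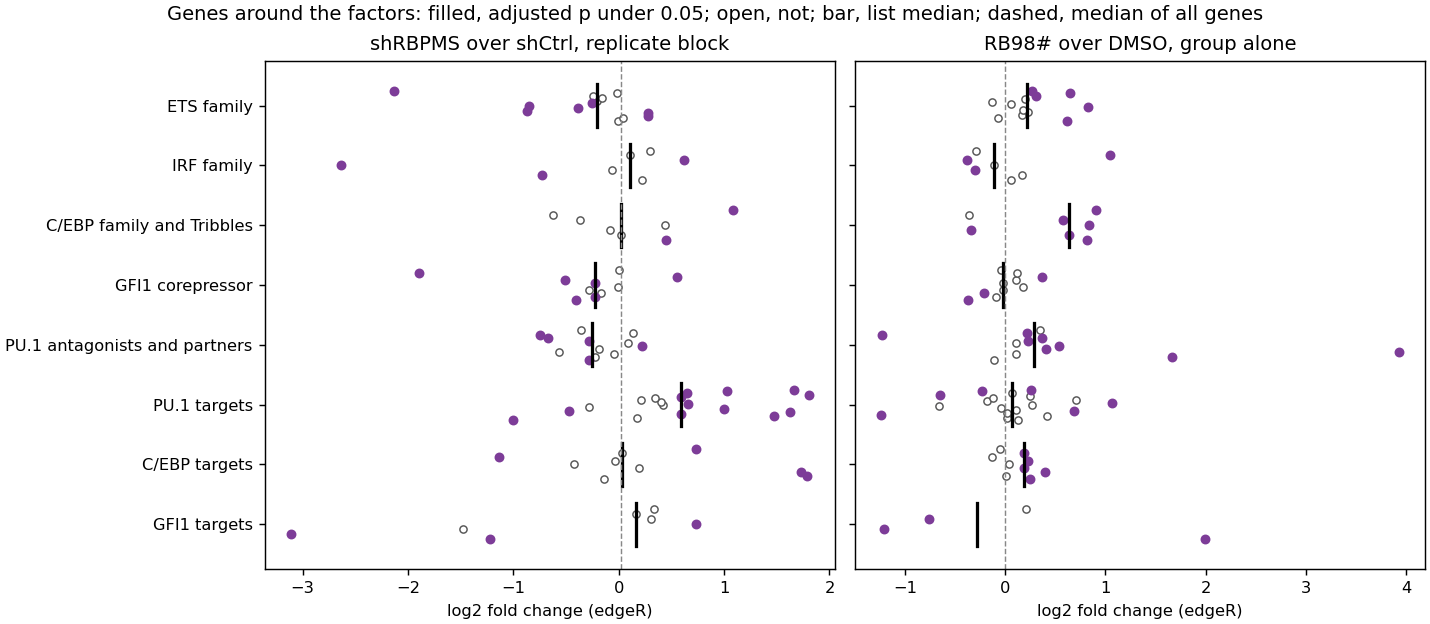
Log2 fold change (x axis) of each gene of the 8 lists (rows) after the knockdown with the replicate block and with RB98#, filled where the edgeR adjusted p is under 0.05, with a bar for the list's median and a dashed line for the median of all genes. The median of the PU.1 targets lies at 0.59 after the knockdown and at 0.07 with RB98#, and the C/EBP family and Tribbles at 0.017 and 0.64.

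The genes most like each member over the 10 libraries were found from Pearson's r of log2 CPM, after the mean of the control libraries of the same experiment was taken off, among 10295 genes. For SPI1 these were AKT1S1 (r = 0.993), ASAH1 (0.991) and POLR3D (0.990). For CEBPA they were ENOSF1 (0.990), MYBBP1A (0.989) and ALDH1B1 (0.989). For CEBPE they were ACD (0.996), STUB1 (0.996) and TAGLN2 (0.993), and for GFI1 GRK5 (0.990), RASA3 (0.986) and AP3M2 (0.982). The libraries share group, label set and depth, so these values describe likeness of pattern in these libraries and carry no p. AKT1S1 had log2 fold changes of 1.05 and 0.18 in the knockdown and with RB98#, and ALDH1B1, the most changed of the genes like CEBPA, had 0.68 and -1.13. Among the members themselves SPI1 and GFI1 had r = -0.968, the largest in size of all member pairs. In the 6 knockdown libraries alone it was -0.971, where SPI1 was higher and GFI1 lower in shRBPMS. The other pairs ran from -0.589 (CEBPE and GFI1) to 0.781 (CEBPE and CEBPA). A link between SPI1 and GFI1 was not tested.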

How the data were processed

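RNA-seq of 10 libraries was analysed, and 4 of the 14 samples listed were not analysed here. Per the file headers, the authors deposited raw counts per gene, without normalisation. The submitters' processing notes list the build hg38/GRCh38 and, without their roles, DESeq2 1.32.0, featureCounts 2.0.1, HISAT2 2.2.1, fastp 0.22.0 and StringTie. A signal value per library, adjusted by the authors in a way not stated, served as an alternative only, by limma on log2(value + 1). The authors' deposited log2 fold changes and adjusted p-values are quoted where named. In the compound experiment 112 repeated lines were dropped, and 4 per-library columns were not used.

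Counts were tested with edgeR 4.0.16 on R 4.3.3 (quasi-likelihood F test, two-sided, TMM factors, filterByExpr with a count of 10 and a total of 15, design of group alone, Benjamini-Hochberg at 0.05 over 16215, 12324 and 12126 genes in the knockdown, with RB98# and for the difference). The filter and test were tried on simulated counts with the same fixed dispersion for every gene and no label set effect. That trial does not cover the spread between the label sets of the knockdown. The SE of a log2 fold change comes from its F value. Samples were grouped by their labels. In the knockdown, deviations from the group means correlated within replicate numbers (0.852, 0.772 and 0.800 over 10606 genes), which follows the label set, so the replicate block is given too. Alternatives were DESeq2 1.42.0, limma-voom (limma 3.58.1), other scaling, no filter, the label set and each library left out. Gene lengths come from GENCODE and promoters from RefSeq. Named genes are all members and, per list, experiment and fit, up to 3 called genes with the largest change. Members and lists were chosen with earlier results of these data known. CEBPA-DT, the list counts under label sets and library totals, and CYBA, NCF1, NCF4, CSF3R and AIF1 were added after values were seen. So were the counts of called myeloblast markers and the values of CD33 and EPOR. A gene of the PU.1 target list that the rule names is counted with its list but not reported here.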

Additional observations from a re-analysis of the deposited data

Results flagged for a closer look

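The effect of RB98# on SPI1 differed from that of the RBPMS knockdown by -1.25 on the log2 scale (edgeR quasi-likelihood test of the contrast in a fit of all 10 libraries, adjusted p = 0.0137). That call was lost without any 1 DMSO or RB98# library, at differences of -1.24 to -1.27, where 1 group then held a lone library. SPI1 was higher in 3 of 3 shRBPMS libraries than in any shCtrl library and in 2 of 2 RB98# libraries than in any DMSO library. The groups did not overlap for 25.9% of all genes in the knockdown and for 68.3% with RB98#. Both effects on SPI1 had the same sign and differed in size.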

How the results depend on the processing

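In the knockdown 1 member was called by group alone, 3 with the replicate block, 4 with the label set as a covariate, 1 with replicates 2 and 3 summed, 3 in label set 2 alone and 0 to 1 when a replicate was left out. All genes called went from 320 to 4549 with the replicate block, 5810 with the label set, 2681 with replicates 2 and 3 summed, 6830 in label set 2 alone, 1338 with DESeq2 and 2309 with the authors' adjusted values, and ranged from 0 to 322 with a replicate left out (the fits with 0 edgeR calls had 1866 to 2010 genes at an unadjusted p under 0.05). CEBPD changed sign in label set 2 alone (-0.27), with the adjusted values (-0.093), without shCtrl replicate 1 (-0.10) and without shRBPMS replicate 1 (-0.16), and was called in none of these; leave-one-out values ran from -0.16 to 0.17. The cause was not tested. With RB98# the members called ranged from 1 to 2 and all genes called from 2731 to 5028 with a replicate left out, against 4659. Library totals gave 1690 higher and 3276 lower genes, against 2530 and 2129. Members whose effects differed between the experiments were 1, 3 with the replicate block, 2 with DESeq2 and 0 to 2 with a replicate left out. Same-numbered RB98# and DMSO libraries did not deviate together (r = -0.0585), and the block there called 4430 genes and 2 members. A lone library left in a group is assumed to vary like the others. CEBPD rests on 23 to 38 counts a library in the RB98# experiment.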
